A study of Mus musculus with 8 samples.

Results

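The genes described here are 10 that act in the water balance of the skin surface: the peptidylarginine deiminases *Padi1*, *Padi2*, *Padi3* and *Padi4*, the histidine ammonia lyase *Hal*, the bleomycin hydrolase *Blmh*, the water channels *Aqp3*, *Aqp5* and *Aqp9*, and the carbonic anhydrase *Car12*. They were given as a list of names, drawn up with earlier results of these data known, and all 10 of 10 had at least 1 probe set, among 18193 genes on the array. Where several probe sets name a gene, the one with the highest mean over the 8 arrays was read, and all 10 were among the 12735 genes kept after the lowest 30% by level were left out. In all 17 probe sets name 1 of these genes alone, and 15 of them lay above the filter for probe sets. Back skin came from female mice of the hairless strain Hos:HR-1 at the age of 21 weeks. All were fed AIN93G, a purified rodent diet, and the control group had nothing added to it. The collagen group had 2 g of fish-scale collagen hydrolysate, which is collagen broken down to peptides, mixed into each 100 g of that diet for 12 weeks from the age of 9 weeks. Of 16 mice in the study, 8 per diet and housed 4 to a cage, the arrays covered 4 samples per diet, numbered in the labels as biological replicates. Which mice shared a cage is not given in the labels.

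The outermost layer of the epidermis holds water with a mixture of small molecules called natural moisturising factor. It is made from filaggrin, a histidine-rich protein of the upper epidermis. Deiminases turn arginine of filaggrin and keratins into citrulline, which loosens filaggrin from keratin filaments, and proteases such as bleomycin hydrolase then break it down to free amino acids. Histidine ammonia lyase converts the freed histidine to urocanic acid, a part of the factor that also absorbs ultraviolet light. Water and glycerol reach the epidermis from below, in part through aquaporins, which are channel proteins of cell membranes. Carbonic anhydrases interconvert carbon dioxide and bicarbonate and so take part in the control of pH and fluid transport.

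On the scale of the deposited values the arrays lay very close together, so values are given here as distance from the gene's control-diet mean, in millionths of a log2 unit. Such distances give order and spread, and are not fold changes of RNA. Differences are collagen minus control diet, with the standard error (SE) from limma and n = 4 per diet. In SD units, they are expressed relative to the SD pooled over both diets. Where a setting was changed, that SD was taken from the same setting. The median within-group SD of the genes tested was 19.4 millionths, and that of the 10 genes ranged from 6.93 for *Padi1* to 763 for *Aqp3*. The medians of the 8 arrays over all probe sets spanned 369 millionths. Control replicate 4 and collagen replicate 1 stood lowest in that median, at -209 and -199 millionths against the control mean, where the other 6 arrays lay between -21 and 161. The same 2 arrays were low in skeletal muscle genes, with mean scores of -1.38 and -1.35 SD units against 0.20 to 0.91 in the others. A mean score is the mean, over a list's tested genes, of each array's distance from the gene's mean of all 8 arrays in SD units. RNA came from whole skin, in which fewer cells of a type and less RNA per cell cannot be told apart. Of the markers of skin, 8 of 8 for basal and 13 of 14 for differentiated keratinocytes lay above the level filter. With 4 arrays against 4, an exact two-sided permutation test cannot give a p below 0.0286.

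No diet difference of the 10 genes passed the test. Among all 12735 genes tested 0 (0.0%) had an adjusted p below 0.05 in limma, and 682 (5.36%) had an unadjusted p below 0.05. For the 10 genes the adjusted p lay between 0.643 and 0.999. At an unadjusted p below 0.05 stood *Padi1* and *Padi3*, above the control diet, and *Car12*, below it, which is 3 of 10. *Padi3* kept such a p in 2 of the 8 settings that left out 1 array. Over all genes tested 1.21% had such a p with a higher and 4.15% with a lower value on the collagen diet. The diets did not overlap in 2 of the 10 genes, *Padi1* and *Car12*, where the background over all genes tested was 3.31%, made up of 0.777% higher and 2.53% lower. By sign alone 5 genes lay above and 5 below the control mean, where 45.5% of all genes tested lay above and 54.5% below. Without the 2 arrays low in muscle genes the differences were 2.68 SD units for *Padi1*, 1.27 for *Padi3* (unadjusted p = 0.162 in limma) and -2.79 for *Car12*, while *Aqp9* stood at -2.07 (unadjusted p = 0.0458, adjusted p = 0.984 in limma). The median of the 10 in all arrays was -0.02 SD units, against -0.08 over all genes tested. On the log2 scale the mean levels of their probe sets ran from 6.73 for *Aqp5* to 11.33 for *Hal*, which are levels of different probe sets and give no order of the RNAs. *Padi1* and *Car12* had been seen in earlier results of these data, so these counts are a description of the set.

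**Figure D1:**
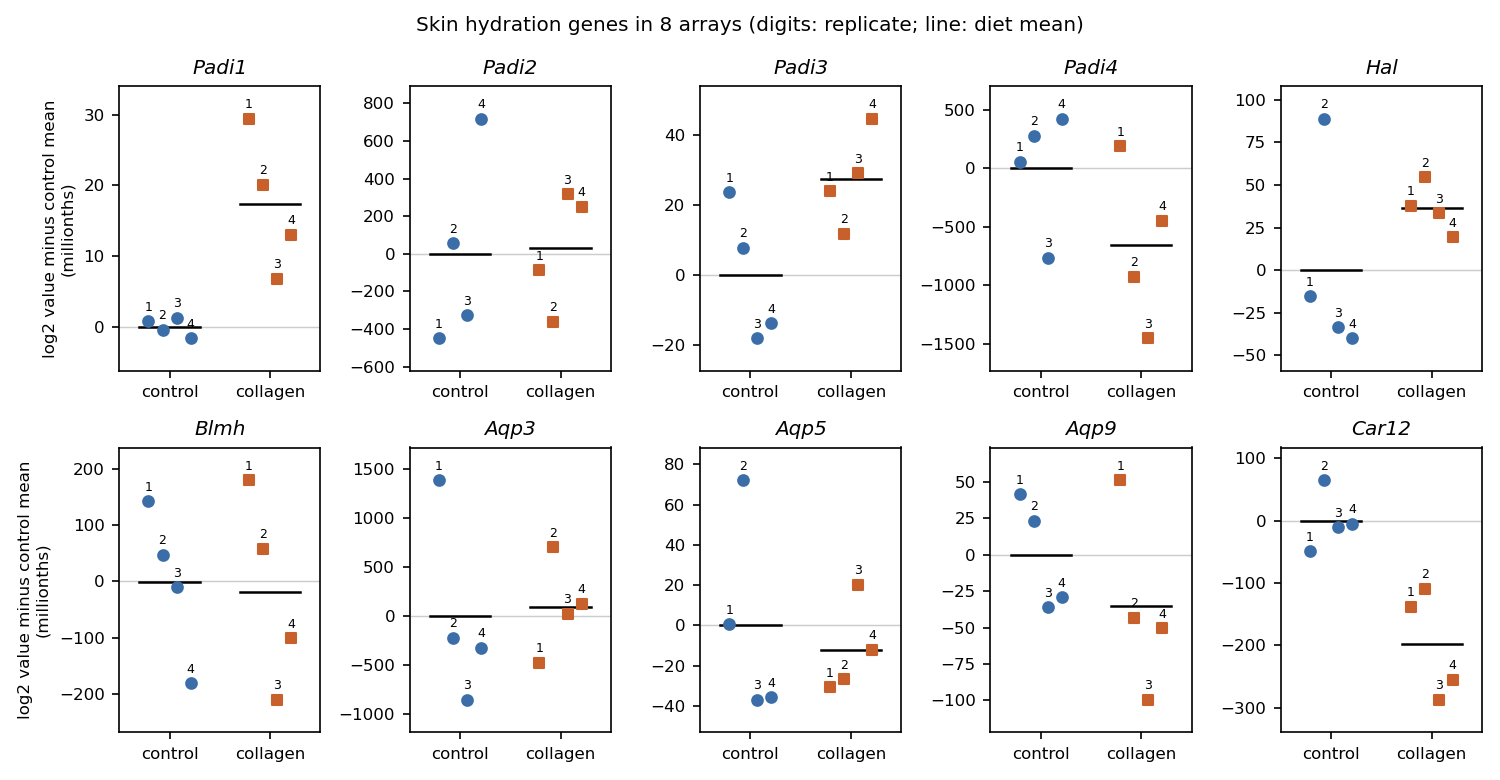
Distance of each array from the control-diet mean, in millionths of a log2 unit (vertical axis, a scale of its own in each panel), for the 10 genes in the 4 control-diet (blue circles) and 4 collagen-diet arrays (orange squares). Digits give the replicate and black lines the diet means. The diets separate in the panels of *Padi1* and *Car12* and overlap in the other 8.

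The upstream sequences of the 3 genes with an unadjusted p below 0.05 are shown to give the regulatory context of *Padi1* and *Padi3*, which lie in 1 gene cluster, and of *Car12*. In the RefSeq table of GRCm38.p6 the deiminase genes lie on chromosome 4 in the order *Padi6*, *Padi4*, *Padi3*, *Padi1*, *Padi2*, with 0 other protein-coding genes between them. The windows hold the 250 bases before the RefSeq start of each gene, printed on the gene's own strand. They are chr4:140845779-140846028 on the minus strand for *Padi1*, chr4:140810649-140810898 on the minus strand for *Padi3* and chr9:66713436-66713685 on the plus strand for *Car12*. Capitals mark the matches to GGGCGG, on either strand.
Padi1: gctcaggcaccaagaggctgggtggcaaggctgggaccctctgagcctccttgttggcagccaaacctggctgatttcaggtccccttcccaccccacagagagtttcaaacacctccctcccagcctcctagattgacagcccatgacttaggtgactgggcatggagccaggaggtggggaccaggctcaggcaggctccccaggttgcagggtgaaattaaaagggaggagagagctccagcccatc
Padi3: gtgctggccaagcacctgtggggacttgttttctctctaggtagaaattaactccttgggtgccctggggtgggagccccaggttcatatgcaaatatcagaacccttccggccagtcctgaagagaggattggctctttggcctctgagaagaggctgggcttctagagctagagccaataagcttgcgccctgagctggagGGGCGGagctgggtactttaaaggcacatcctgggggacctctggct
Car12: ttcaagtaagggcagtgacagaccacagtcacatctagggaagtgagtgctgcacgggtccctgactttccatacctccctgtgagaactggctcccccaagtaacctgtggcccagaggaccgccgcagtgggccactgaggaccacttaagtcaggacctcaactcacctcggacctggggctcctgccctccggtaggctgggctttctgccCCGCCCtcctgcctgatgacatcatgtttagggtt

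These 4 motifs were searched on both strands: TATAAA, the core of the TATA box, TGANTCA, bound by AP-1 factors, GGGCGG, the GC box bound by Sp1-type factors, and ACGTG, the core of the hypoxia response element. Each of the *Padi3* and *Car12* windows held 1 GC box, which began 47 bases before the start of *Padi3* and, on the opposite strand, 35 bases before that of *Car12*. The *Padi1* window held 0 matches to any of the 4. The table gave 11 windows for the 10 genes, as *Aqp9* has 2 starts. The GC box was found in 6 of the 11, against 32.7% of all 32851 windows of this length. TATAAA was found in 3 of the 11, those of *Padi4*, *Hal* and *Aqp3*, against 12.4% of all windows. TGANTCA was in 3, those of *Padi4*, *Hal* and 1 start of *Aqp9*, against 6.75%. ACGTG was in 2, those of *Aqp5* and the same *Aqp9* start, against 16.6%. Of the 3 ACGTG matches of *Aqp5*, those beginning 87 and 86 bases before the start overlap, on opposite strands. A match is a description of letters and shows no binding.

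*Padi1* (probe set 1419323_at, mean level 6.94 on the log2 scale) encodes the deiminase of the living and cornified epidermis that acts on keratins and filaggrin. Its control-diet arrays lay at 0.78, -0.45, 1.28 and -1.61 millionths from their mean in replicates 1 to 4. Its collagen-diet arrays lay at 29.4, 20.1, 6.78 and 13.0. All 4 collagen-diet arrays thus stood above all 4 control-diet arrays, and the control arrays lay far closer together (SD 1.3 millionths, n = 4) than the collagen arrays (SD 9.72 millionths, n = 4). The difference was 17.3 ± 4.78 millionths (SE), or 2.50 SD units with a 95% interval of 0.85 to 4.14, with an unadjusted p of 0.00935 and an adjusted p of 0.758 in limma. The exact permutation p was 0.0286, the smallest that this design allows. Among all genes tested 0.228% had a larger difference in SD units. After quantile normalization or median centring the direction turned, to -0.03 and -0.04 SD units, or -6.35 and -5.86 millionths. The within-group SD was larger in both settings than as deposited, so these values lie close to 0 against their spread. The array medians spanned 369 millionths and their diet means differed by 23.2, against the difference of 17.3 in *Padi1*.

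*Padi3* (1419767_at, mean level 7.33 on the log2 scale) encodes the deiminase of the hair follicle, where trichohyalin of the inner root sheath is its main substrate, and of the upper epidermis. Control replicates 1 to 4 lay at 23.7, 7.86, -17.9 and -13.7 millionths and collagen replicates 1 to 4 at 24.0, 11.8, 29.1 and 44.6. All 4 collagen arrays stood above the control mean and 3 of them above every control array, while collagen replicate 2 lay below control replicate 1. The difference was 27.4 ± 11.4 millionths (SE), or 1.64 SD units with a 95% interval of 0.01 to 3.26 (unadjusted p = 0.0486, adjusted p = 0.930 in limma). The exact permutation p was 0.0571. Leaving out 1 array gave 1.35 to 2.58 SD units. The highest came without control replicate 1, with no overlap (unadjusted p = 0.0137, adjusted p = 0.715 in limma), and without collagen replicate 2 the unadjusted p was 0.0372. In the other 6 of these 8 settings it was 0.0631 to 0.116 in limma, and without variance moderation 0.0599. After quantile normalization the difference was 0.16 SD units, or 29.2 millionths. After median centring it was 0.03 SD units, or 4.23 millionths. The within-group SD was larger in both settings than as deposited.

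*Padi2* (1418252_at, mean level 7.31 on the log2 scale), the most widely expressed deiminase, had nearly equal diet means. On the control diet the replicates lay at -448, 57.7, -328 and 718 millionths and collagen replicates at -86.8, -360, 318 and 249.9. The collagen arrays fell inside the range of the control arrays. The difference was 30.3 ± 292 millionths (SE), or 0.07 SD units with a 95% interval of -1.54 to 1.68 and an adjusted p of 0.999 in limma. Without control replicate 4, the highest array, it was 0.91 SD units, and in 4 of 8 settings that left out 1 array it was negative.

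*Padi4* (1422760_at, mean level 7.41 on the log2 scale) encodes the deiminase of granulocytes, a nuclear enzyme that citrullinates histones. Control values of replicates 1 to 4 were 59.7, 279.7, -764 and 425 millionths, and collagen values were 193, -926, -1453 and -446. Collagen replicates 2 and 3 stood below every control array, and collagen replicate 1 stood above the control mean. The difference was -658 ± 419 millionths (SE), or -1.06 SD units with a 95% interval of -2.67 to 0.55 and an adjusted p of 0.999 in limma. The exact permutation p was 0.200. Without collagen replicate 1 it was -1.81 SD units (adjusted p = 0.904 in limma). Of 10 neutrophil markers listed 5 were above the level filter, 4 of them with positive and 1 with a negative difference, and *Camp*, *Ltf* and *Mmp8*, genes of neutrophil granules, were below it. Of the 5 above it, the granule gene *Mpo* differed by 1.72 SD units (unadjusted p = 0.0397, adjusted p = 0.923 in limma). *Csf3r* differed by 0.33, *Elane* by 0.29, *Ngp* by 0.16 and *Cxcr2* by -0.24. Over all genes tested 1.21% had an unadjusted p below 0.05 in limma with a higher value. The 5 tested markers had mean scores of -0.82 to 0.39 in control and -0.27 to 0.79 in collagen arrays. The part of granulocyte number in the *Padi4* values was not tested.

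The 4 deiminases therefore did not share 1 direction, and no member of the family passed the test. *Padi1* and *Padi3*, the pair of the epidermis and follicle, had positive differences of 2.50 and 1.64 SD units, *Padi2* had one of 0.07 and *Padi4* one of -1.06. Whether these differences differ from each other was not tested. No correlation of *Padi1* with *Padi3* is given, since the diets separate in *Padi1* and 4 arrays of a diet are too few. Collagen replicate 1, the highest array in *Padi1*, was the third highest in *Padi3*, and collagen replicate 4, the highest in *Padi3*, was the third highest in *Padi1*.

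Of the genes listed here as deiminase substrates, which include the inner root sheath keratins as a group, 0 passed the test. All 13 of 13 substrates tested had a positive difference, of 15 listed, with a median of 1.02 SD units, against -0.08 over all genes tested, of which 45.5% had a positive difference. At an unadjusted p below 0.05 in limma stood 4, all positive, where 1.21% of all genes tested had such a p with a higher value. Leaving out 1 array gave 2 to 5 of them, with 2 in each setting without control replicate 2, 3 or 4 or collagen replicate 1 or 4. Quantile normalization gave 1 and median centring 4. Of the 13 tested, 8 also stand in the list of inner root sheath and hair markers, and earlier results of these data had shown several of them. The 4 with such a p as deposited, *Krt25*, *Krt73*, *Tchh* and *Krt27*, are all among those 8. *Tchh*, trichohyalin, lay at 4426, -3292, -634 and -499.7 millionths in the control arrays and at 7269, 7329, 2022 and 6825 in the collagen arrays. Its collagen replicate 3 lay below control replicate 1, so the diets overlapped (2.01 SD units, adjusted p = 0.861 in limma). The inner root sheath keratins *Krt25* and *Krt73* did not overlap between the diets, at 3.07 and 2.64 SD units, with adjusted p of 0.606 and 0.703 in limma. Over all genes tested 0.777% had non-overlapping higher values. The epidermal substrates *Flg*, filaggrin, *Krt1* and *Krt10* differed by 0.60, 0.24 and 0.80 SD units. *Vim*, vimentin, and *Mbp*, myelin basic protein, differed by 0.81 and 0.03. Each of these substrates outside the hair list had an unadjusted p above 0.05 in limma. After median centring 10 of the 13 were positive and 3 negative. After quantile normalization 8 were positive, 1 was negative and the others had equal diet means, and leaving out 1 array gave 11 to 13 positive. Over all genes tested, median centring left 13.5% positive and quantile normalization 29.5%.

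In the list of inner root sheath and hair markers 12 of 13 genes had positive differences, where 45.5% of all genes tested had. None passed the adjusted threshold. At an unadjusted p below 0.05 in limma stood 4 higher and 1 lower, against 1.21% and 4.15% of all genes tested. The diets did not overlap in 3 higher and 1 lower, against 0.777% and 2.53%. The cell type lists were not counted under the other normalizations. *Padi1* and *Padi3* also had positive differences. The exception in the list was *Hoxc13*, a transcription factor of the hair shaft, at -2.12 SD units with no overlap (unadjusted p = 0.0179, adjusted p = 0.82 in limma). The list's mean score ranged from -1.22 to 0.13 SD units in the control arrays and from -0.18 to 1.10 in the collagen arrays. The order of the arrays in this score was not that of the deiminases throughout. Control replicate 1, with the highest control score, was the highest control array in *Padi3*, but control replicate 3, with the lowest score, was the highest control array in *Padi1*. Collagen replicate 3, with the lowest collagen score, was the second highest of all arrays in *Padi3*. Differentiated keratinocyte markers had a score of -1.0 to 0.45 in control and -0.22 to 0.89 in collagen arrays, with 11 of 13 genes positive. The part of follicle or keratinocyte content in the deiminase values was not tested.

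**Figure D2:**
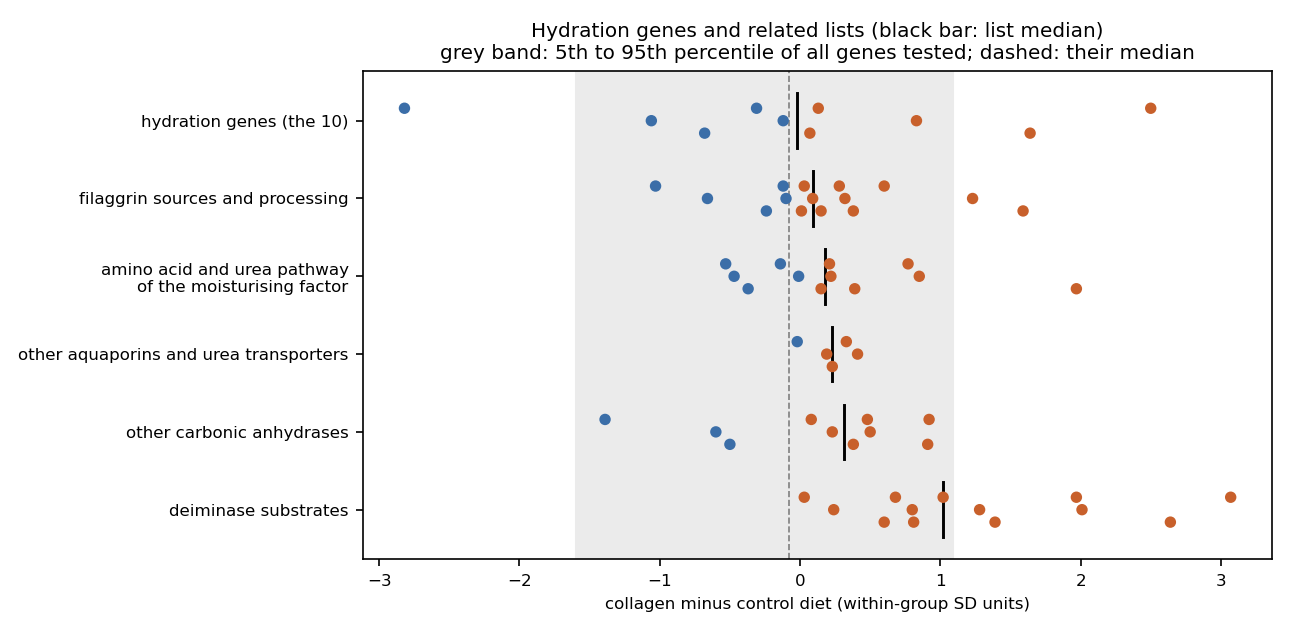
Differences between the diets in within-group SD units (horizontal axis) for the 10 hydration genes and 5 related lists, 1 point per gene tested (orange above 0, blue below 0). Black bars are list medians, the grey band runs from the 5th to the 95th percentile of all genes tested, from -1.60 to 1.09, and the dashed line is their median of -0.08. The deiminase substrates lie at or above 0.03, and *Car12* and *Padi1* are the outer points of the first line.

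*Hal* (1418645_at, mean level 11.33 on the log2 scale), which starts the breakdown of histidine, was tightly grouped on the collagen diet. The 4 control arrays lay at -15.2, 88.7, -33.6 and -39.8 millionths and collagen replicates at 37.7, 54.4, 33.4 and 19.2. Every collagen array stood above 3 of the control arrays and below control replicate 2. The difference was 36.2 ± 29.5 millionths (SE), or 0.83 SD units with a 95% interval of -0.79 to 2.44, with an adjusted p of 0.999 in limma and an exact permutation p of 0.257. Without control replicate 2 it was 4.76 SD units with no overlap (unadjusted p = 0.000885, adjusted p = 0.704 in limma), so this 1 array decides the size of the value. Without any 1 of the other control arrays the value lay between 0.53 and 0.66. After median centring it was 0.09 SD units, or 13.0 millionths.

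*Blmh* (1438961_s_at, mean level 10.64 on the log2 scale), the protease that releases citrulline and other amino acids from filaggrin peptides, overlapped between the diets. In control replicates 1 to 4 the values were 143, 47.8, -10.6 and -181 millionths, and in the collagen replicates 179.8, 58.0, -210.1 and -101. Both the highest and the lowest array were on the collagen diet. The difference was -18.4 ± 104 millionths (SE), or -0.12 SD units with a 95% interval of -1.73 to 1.49 (adjusted p = 0.999 in limma). Its other probe set, 1452101_at, gave 0.08 SD units, and over the 8 arrays the 2 probe sets were correlated (Pearson r = 0.85, exact permutation p = 0.00680, adjusted p = 0.00815 over 6 pairs of probe sets; Spearman rho = 0.83, exact permutation p = 0.0154, adjusted p = 0.0185). Without the 2 arrays farthest from the median the r was 0.88. Without the 2 arrays low in muscle genes the difference of *Blmh* was -1.32 SD units (unadjusted p = 0.148, adjusted p = 1.0 in limma).

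In the lists for the supply of filaggrin and the further steps of the moisturising factor, 0 genes passed the test. Of 15 genes tested for filaggrin sources and processing, 10 had positive and 5 negative differences, with a median of 0.09 SD units, and 0 had an unadjusted p below 0.05. The smallest p in that list were those of *Pcsk6*, a proprotein convertase, at 1.59 SD units, *Ppl*, periplakin, at 1.23 and *Ctsh*, cathepsin H, at -1.03. *Casp14*, the caspase of the cornifying epidermis that cleaves filaggrin, differed by 0.32 SD units. The split of this list turned with the processing: median centring left 5 of 15 positive, and quantile normalization left 2 positive and 9 negative. Leaving out control replicate 3 gave 5 positive, leaving out collagen replicate 1 gave 6, and the 6 arrays other than control replicate 4 and collagen replicate 1 gave 5.

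In the amino acid and urea pathway, 7 of 12 genes tested had positive differences, with a median of 0.18 SD units, and 1 had an unadjusted p below 0.05. This was *Slc36a1*, a proton-coupled transporter of small amino acids such as glycine and proline. Its control arrays lay at -4.62, -24.1, 12.5 and 16.2 millionths and its collagen arrays at 39.8, 17.5, 28.3 and 28.7, with no overlap. It did not pass (1.97 SD units, adjusted p = 0.872 in limma). Over all genes tested 1.21% had an unadjusted p below 0.05 in limma with a higher value, and 0.777% had non-overlapping higher values. Without control replicate 1, collagen replicate 1 or collagen replicate 3 the list had 0 genes at such a p. Quantile normalization and median centring also gave 0. *Uroc1*, urocanase, which breaks down the product of *Hal*, differed by 0.77 SD units and *Pepd*, the dipeptidase of proline-containing peptides, by 0.85, both with overlap and an adjusted p of 0.999 in limma. After median centring 4 of the 12 were positive.

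*Aqp3* (1450460_at, mean level 10.37 on the log2 scale), the channel that carries water and glycerol in basal keratinocytes, did not separate the diets. Replicates 1 to 4 of the control diet lay at 1386, -218, -848 and -320.4 millionths and collagen replicates at -471, 705, 26.7 and 129.6. The highest array was control replicate 1 and the lowest control replicate 3, so the collagen arrays lay inside the control range. The difference was 97.7 ± 514 millionths (SE), or 0.13 SD units with a 95% interval of -1.48 to 1.74 (adjusted p = 0.999 in limma). Without control replicate 1 it was 1.30 SD units (adjusted p = 0.977 in limma). Its probe sets 1422007_at and 1422008_a_at differed by 0.20 and 0.34 SD units, and over the 8 arrays the 3 pairs of probe sets had a Pearson r of 0.90 to 0.94. Their exact permutation p ran from 0.000174 to 0.00124, adjusted to between 0.00104 and 0.00248 over 6 pairs, with Spearman rho of 0.83 to 0.93 (exact permutation p = 0.00223 to 0.0154). Without the 2 arrays farthest from the median r was 0.72 to 0.85. One more probe set, 1447727_at, lay below the filter.

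*Aqp5* (1418818_at, mean level 6.73 on the log2 scale) encodes a water channel of secretory glands. Its control replicates lay at 0.643, 72.0, -36.9 and -35.8 millionths and collagen replicates at -30.8, -26.8, 20.2 and -12.2. Control replicate 2 was the highest array, and the collagen arrays again lay within the control range. The difference was -12.4 ± 26.7 millionths (SE), or -0.31 SD units with a 95% interval of -1.92 to 1.30 (adjusted p = 0.999 in limma). Without control replicate 2 it turned to 0.52 SD units.

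*Aqp9* (1424011_at, mean level 8.02 on the log2 scale) encodes a channel for glycerol, urea and water that is best known from liver and leukocytes. For the control diet the values were 41.7, 23.4, -35.8 and -29.3 millionths, and for the collagen diet 51.1, -43.3, -99.4 and -50.4. Collagen replicates 2, 3 and 4 stood below every control array, and collagen replicate 1 stood above every control array. The difference was -35.5 ± 35.2 millionths (SE), or -0.68 SD units with a 95% interval of -2.30 to 0.93 (adjusted p = 0.999 in limma). Without collagen replicate 1 it was -1.81 SD units with no overlap (unadjusted p = 0.0488, adjusted p = 0.904 in limma), and without collagen replicate 3 it was -0.30 (unadjusted p = 0.689 in limma). The other probe set, 1421605_a_at, differed by -1.29 SD units, and the correlation between the 2 did not pass (Pearson r = 0.51, exact permutation p = 0.192; Spearman rho = 0.60, exact permutation p = 0.132; the adjusted values over 6 pairs were the same), with an r of -0.15 without the 2 arrays farthest from the median. After quantile normalization the direction turned, to 0.26 SD units.

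Of 11 further aquaporins and urea transporters listed, 5 lay above the level filter, and 4 of these had positive differences. Those with the smallest p were *Aqp2*, the water channel of the kidney collecting duct, at 0.41 SD units, *Aqp1*, that of red cells and small vessels, at 0.33 and *Slc14a2*, a urea transporter, at 0.23. The median was 0.23 SD units and 0 had an unadjusted p below 0.05. Median centring and quantile normalization each left 1 of the 5 positive, and leaving out 1 array gave 2 to 5.

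*Car12* (1428485_at, mean level 9.26 on the log2 scale), a carbonic anhydrase anchored in the cell membrane with its active site outside the cell, lay lower in every collagen-diet array, without passing the test. The control arrays 1 to 4 were at -49.0, 64.4, -10.4 and -4.89 millionths and collagen replicates at -138, -109, -287 and -255. Collagen replicates 3 and 4 stood farthest below the control arrays. The difference was -197 ± 47.2 millionths (SE), or -2.82 SD units with a 95% interval of -4.44 to -1.21, with an unadjusted p of 0.00469 and an adjusted p of 0.643 in limma. The exact permutation p was 0.0286. Among all genes tested 0.793% had a difference further below 0. A second probe set, 1447762_x_at, also had all 4 collagen arrays below all 4 control arrays. Its mean level was lower, at 7.10 on the log2 scale, and its pooled within-group SD was 4.32 millionths, against 69.9 for the first.

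In that second probe set of *Car12* the control arrays lay at 2.82, 2.49, -3.95 and -1.37 millionths and the collagen arrays at -6.45, -6.51, -15.6 and -15.3. Its difference was -11.0 ± 3.14 millionths (SE), or -2.54 SD units (unadjusted p = 0.0110, adjusted p = 0.730 in limma over 31526 probe sets). Of those probe sets 0 (0.0%) passed the adjusted threshold, 4.0% had an unadjusted p below 0.05 with a lower value and 2.42% had non-overlapping lower values. Both probe sets placed collagen replicates 3 and 4 lowest. No correlation between them is given, since the diets separate in both. The third probe set, 1446517_at, lay below the filter, with all arrays between -1.36 and 1.72 millionths, and differed by 1.11 SD units with overlap.

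The direction of *Car12* was negative in each of the 19 alternatives run, between -3.67 and -0.94 SD units, with an adjusted p of 0.574 to 1.0 in limma. After quantile normalization the difference was -0.94 SD units, or -325 millionths, and after median centring -1.13 SD units, or -220.3 millionths. As deposited it was -197 millionths, with a smaller within-group SD. The diets overlapped after both normalizations. Of the other carbonic anhydrases, 10 were tested among 15 listed, and 7 had positive and 3 negative differences, with a median of 0.31 SD units and 0 with an unadjusted p below 0.05. *Car5b*, of mitochondria, differed by -1.39 SD units, *Car2*, a cytosolic form, by 0.92 and *Car3*, a form of muscle and fat, by 0.91. After median centring 3 of the 10 were positive and 7 negative, and after quantile normalization 3 and 6.

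Of 12 sebaceous gland markers listed, 10 were tested, 6 of them with negative differences, where 54.5% of all genes tested were negative. Of the 10, 3 had an unadjusted p below 0.05 in limma with a lower value, against 4.15% of all genes tested, and 0 passed the adjusted threshold. The 3 were *Cidea*, a lipid droplet protein, at -3.59, *Pparg*, a nuclear receptor of lipid cells, at -2.66 and *Elovl3*, a fatty acid elongase, at -2.35 SD units. The 4 with positive differences were *Dgat2* at 1.04, *Scd3* at 0.75, *Scd1* at 0.23 and *Ppara* at 0.11, all genes of lipid metabolism. The mean score of the list ranged from -0.35 to 1.08 SD units in the control arrays and from -0.84 to 0.10 in the collagen arrays. Collagen replicate 3 was the lowest array both in this score and in *Car12*, and control replicate 2 the highest in both. The order of the other arrays was not the same. Control replicate 1, with the second highest score (0.72), was the lowest control array in *Car12*. Control replicate 4, with the lowest control score, was the second highest control array in *Car12*. Collagen replicate 1, with the highest collagen score, lay below collagen replicate 2 in *Car12*. The part of gland content in the *Car12* values was not tested.

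**Figure D3:**
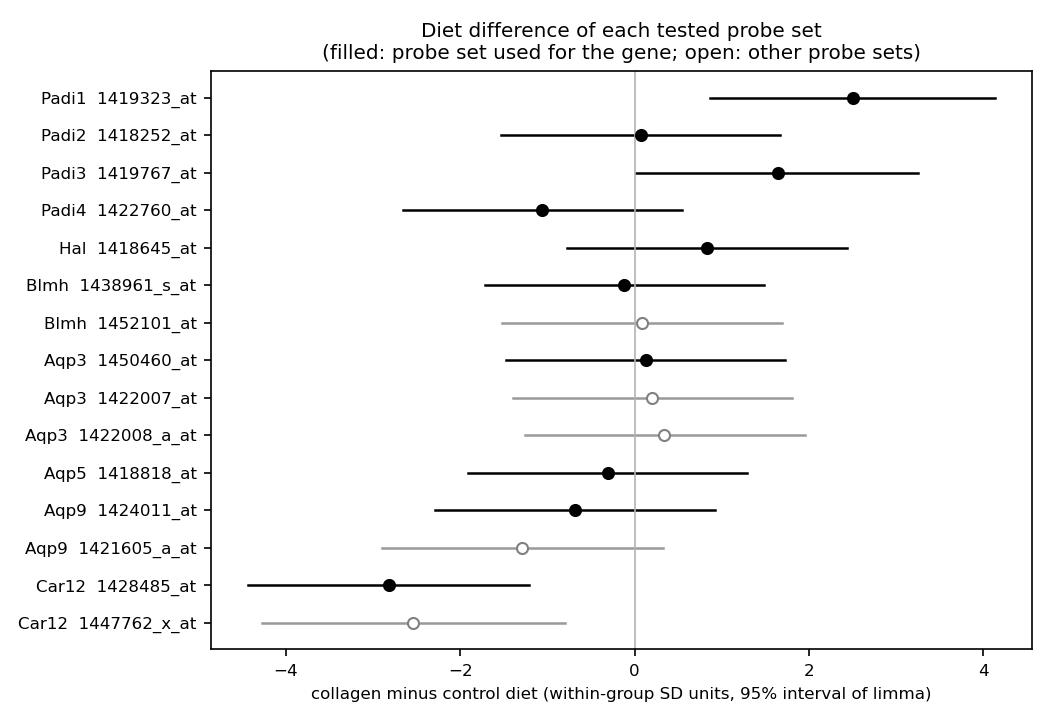
Difference between the diets (horizontal axis, within-group SD units) with limma's 95% interval for the 15 probe sets tested of the 10 genes, 1 line each. Filled points are the probe sets used for the genes and open points the others. Both *Car12* probe sets lie below 0 with their intervals, *Padi1* and *Padi3* lie above 0, and the intervals of the other 11 include 0.

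**Figure D4:**
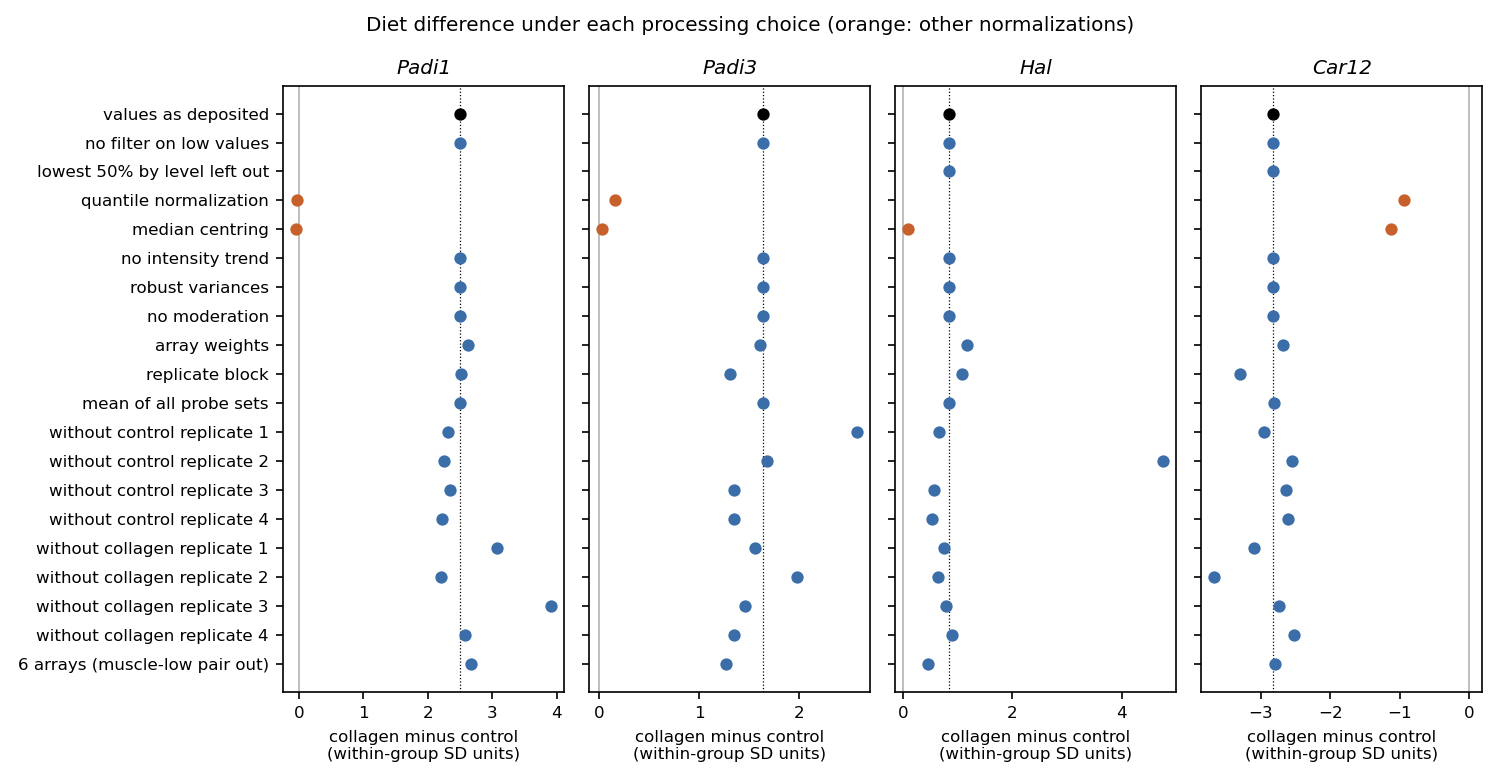
Difference between the diets (horizontal axes, within-group SD units, a scale of its own in each panel) of *Padi1*, *Padi3*, *Hal* and *Car12* under each processing choice (1 line each). Black points are the values as deposited, orange points the 2 other normalizations and blue points all else; a missing point means that the gene was not tested or had equal values there. The *Padi1* point moves from 2.50 to -0.03 and -0.04 in the orange settings, and the *Hal* point reaches 4.76 without control replicate 2.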

How the data were processed

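Total RNA of dorsal skin was amplified from the 3' end, labelled and read on an oligonucleotide array, 1 array per biological replicate, per the labels' protocols. The authors deposited log2 values, a scale taken from the values, which lie between 5.34 and 14.27. R 2.7.2 is the tool that the submitters' processing notes name, while the method that turned probes into these values was not given in the sources used here. These values differ unusually little between arrays (median SD of a probe set 8.66e-06), which limits them to order and relative spread. After 64 control probe sets were set aside, 45037 remained, of which 34945 name 1 gene symbol in the platform annotation, 932 several and 9160 none. That annotation can be old, and 34741 of the 34945 had their Entrez ID in the RefSeq table.

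Both diets entered 1 linear model, fitted with limma 3.58.1 (R 4.3.3) by lmFit and by eBayes with trend, with two-sided tests and 6 residual and 0.613 prior degrees of freedom, over 12735 genes and, separately, 31526 probe sets, with Benjamini-Hochberg adjustment. Exact permutation tests, two-sided, covered all 70 splits or all pairings (Python 3.11.15). The fit was also run on simulated arrays with independent noise of equal SD in both diets. That run does not cover shifts of whole arrays or unequal spread between the diets, so it cannot show how the fit behaves on these data. Samples were grouped by their titles. The genes, the lists and the rule for names (all 10 genes, the 3 smallest p of each pathway list, and defining markers of a cell type list that differs alongside a member) were chosen with earlier results of these data known. *Flg*, *Krt1*, *Krt10*, *Vim*, *Mbp*, *Casp14*, *Csf3r* and *Cxcr2* were named beyond that rule, after their values were seen. Precision is limited by the number of arrays and their spread, as no background signal was at hand. Alternatives changed the filter, the normalization, the variance model, the probe sets and the arrays used.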

Additional observations from a re-analysis of the deposited data

How the results depend on the processing

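None of the 10 genes passed an adjusted p of 0.05 in limma in any of the 19 alternatives. One gene in all passed with the lowest 50% by level left out (1 of 9096) and 1 at an adjusted p below 0.10. Leaving out 1 array gave 0 to 1 genes past the threshold, 550 to 787 genes at an unadjusted p below 0.05 and 652 to 888 with non-overlapping diets, where fewer arrays had to separate. The 1 gene past the threshold came without control replicate 1. For the 10 genes these ranges were 0, 2 to 4 and 2 to 3. With the 2 arrays low in skeletal muscle genes both left out, 1244 genes had non-overlapping diets. After quantile normalization 73 genes had an unadjusted p below 0.05 and 11 did not overlap. After median centring these were 78 and 26. Of the 10 genes 0 had such a p and 0 did not overlap in either setting, and the cause was not tested. The share of all genes tested with a lower value was 64.5% and 86.5% in these settings, against 54.5% as deposited. With the lowest 50% left out, *Padi1* to *Padi4* and *Aqp5* were not tested, and 1 of the other 5 had an unadjusted p below 0.05 and non-overlapping diets.

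Some directions turned. Quantile normalization gave -0.03 SD units for *Padi1*, -0.36 for *Aqp3*, 0.20 for *Aqp5* and 0.26 for *Aqp9*, and median centring gave -0.04 for *Padi1*. *Hal* and *Blmh* had equal diet means after quantile normalization, and so no direction. Without 1 array at a time *Padi2* turned to -0.29, -0.18, -0.15 and -0.09 (control replicates 1 and 3, collagen replicates 3 and 4), *Aqp3* to -0.26, -0.01 and -0.14 (control replicates 3 and 4, collagen replicate 2), *Blmh* to 0.19, 0.33 and 0.06 (control replicate 1, collagen replicates 3 and 4) and *Aqp5* to 0.52 (control replicate 2). The other *Blmh* probe set gave 0.08. Over the 8 settings that left out 1 array, *Padi2* ranged from -0.29 to 0.91, *Blmh* from -0.62 to 0.33, *Aqp3* from -0.26 to 1.30 and *Aqp5* from -0.63 to 0.52 SD units. In the 6 arrays other than control replicate 4 and collagen replicate 1, *Padi2* was at 0.95 and *Blmh* at -1.32. Deviations of same-numbered arrays of the diets had correlations over genes of 0.00448, -0.0184, 0.185 and -0.0717. Those of differently numbered pairs ran from -0.313 to 0.168, so the value of replicates 3 was the highest of all. Whether the numbers mark a shared cage or day is not given in the labels. The replicate number as a block left 0 genes past the threshold and 665 at an unadjusted p below 0.05. It gave 2.51 SD units for *Padi1*, 1.31 for *Padi3* (unadjusted p = 0.121 in limma) and -3.30 for *Car12*.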

Other observations

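Among the 45 pairs of the 10 genes, 0 correlations over the 8 arrays had an adjusted p below 0.05, by Pearson or Spearman, and 4 had an unadjusted Pearson p below 0.05 in the exact permutation test. The first was that of *Blmh* and *Aqp9*, with a Pearson r of 0.85 (exact permutation p = 0.0112, adjusted p = 0.361) and a Spearman rho of 0.76 (exact permutation p = 0.0368, adjusted p = 0.516). It was 0.85 without the 2 arrays farthest from the *Blmh* median and 0.88 with the diet means taken out. Another was that of *Padi3* and *Car12*, for which no r is given, since the diets separate in *Car12*. *Padi4* correlated with *Aqp9* at 0.79 and *Padi2* with *Blmh* at -0.78 (exact permutation p = 0.0242 and 0.0248, adjusted p = 0.361 for each; rho of 0.71 and -0.79, exact permutation p = 0.0576 and 0.0279). Their r without the 2 farthest arrays was 0.56 and -0.64.

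Each gene has 1 lowest and 1 highest array, and these counts are a description only. Collagen replicate 3 was the lowest array in 4 of the 10 genes (*Padi4*, *Blmh*, *Aqp9* and *Car12*), and control replicate 3 in 3 (*Padi3*, *Aqp3* and *Aqp5*). Collagen replicate 1 was the highest in 3 (*Padi1*, *Blmh* and *Aqp9*), as was control replicate 2 (*Hal*, *Aqp5* and *Car12*). Of 34 groups of 4 arrays, over all 17 probe sets of the genes, 0 had an array set apart past the 95% limit of Dixon's gap ratio.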
